A study of Homo sapiens with 24 samples.

Results

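ES2 cells given an siRNA against VRK1 (siVRK1) were compared with ES2 cells given a control siRNA (siCtrl). This comparison was chosen by its labels, as the 3 siVRK1 and the 3 siCtrl libraries of ES2 in a series of 24 RNA-seq libraries, so it rests on 6 of the 24. ES2 is an established human ovarian cancer line, usually listed as clear cell carcinoma, and the labels call its genotype wild type. The series also holds ES2 with the solvent DMSO or with luteolin, and a second ovarian cancer line, A2780, with the same 4 treatments, each in 3 libraries. The DMSO libraries of ES2 served here as a second set of control cells. Whether those cells were transfected, how long any treatment lasted and which siRNA sequences were used is not stated in the labels.

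The labels limit the comparison in several ways. The titles name siVRK1 throughout, while the treatment labels of siVRK1 samples 2 and 3 read siVRK2 and siVRK3 and the cell line label counts upward from ES2. A pair of siVRK1 columns in the table share 1 name, and they appear here as libraries a and b, beside library 3. Separate cultures, passages or days for the 3 libraries of a group are not stated, so each p-value reflects spread among libraries alone, and that spread may be technical. Loss of VRK1 and any other effect of the siRNA cannot be told apart in this design.

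VRK1 is a nuclear serine/threonine kinase of the vaccinia-related kinase family. It is best known for phosphorylating BANF1 (BAF), a small protein that tethers DNA to the nuclear envelope and is released from chromatin when the envelope disassembles in mitosis. It also phosphorylates histone H3, p53, coilin and other chromatin and DNA repair proteins, and its transcript is usually high in dividing cells. RNA interference destroys an mRNA that pairs with the siRNA, and an siRNA can also lower other mRNAs that match it only in part.

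Levels are given in TPM (transcripts per 1000000), a unit scaled by transcript length in which each library adds to the same total. A value is the sum over the transcripts of a gene symbol. A log2 fold change here compares log2(TPM + 1), and so falls short of the true ratio for genes near or below 1 TPM. The depth of the libraries is unknown, since TPM keep no record of it. Between 11792 and 11915 genes reached 1 TPM in the 6 libraries. Across genes, log2 levels correlated at 0.992 to 0.993 within a group and at 0.960 to 0.962 between the groups, and genes are not independent replicates. Libraries a and b correlated at 0.993 and differed in 99228 transcripts, so they were counted as separate libraries. Mitochondrial mRNAs held 5.01% to 5.62% of TPM.

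The markers of the line were mixed. The keratins KRT7 (349 TPM with siCtrl) and KRT18 (531 TPM) and the mesenchymal filament protein VIM (3858 TPM) were all high, and MECOM was at 20.6 TPM. Of 13 epithelial markers only 4 were high enough to be tested, namely KRT7, KRT18, KRT8 (88 TPM) and MUC1 (0.406 TPM with siCtrl, 1.19 with siVRK1). The others, among them EPCAM (0.187 TPM) and CDH1 (0.0448 TPM), had siCtrl means below 1 TPM. PAX8 and WT1, transcription factors of many ovarian carcinomas, stood at only 1.93 and 2.34 TPM. NAPSA, a usual marker of clear cell carcinoma, was at 0.0165 TPM, and MUC16, FOLR1, MSLN and SOX17 were at 0 in all 6 libraries, so a clear cell identity is not seen in these transcripts. Of 14 leukocyte markers, 9 were at 0 in all 6 libraries. Their summed level was 36.2 to 43.6 TPM with siCtrl and 71.4 to 79.5 TPM with siVRK1, nearly all of it the lysosomal protein CD68, while PTPRC (CD45) was at 0.246 and 0.158 TPM. The 6 erythroid markers summed to at most 0.31 TPM. Of 9 endothelial markers, TIE1, CDH5 and ROBO4 were expressed while CLDN5 and ERG were at 0, and the list summed to 155 to 162 TPM with siCtrl and 188 to 203 TPM with siVRK1. The 9 fibroblast markers summed to 86.5 to 102 TPM and 54.5 to 67.1 TPM. The part of these marker genes in the results was not tested.

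VRK1 itself was at 65.5, 66.2 and 62.2 TPM in the siCtrl libraries and at 4.08, 4.2 and 2.92 TPM in siVRK1 libraries a, b and 3. The 3 siVRK1 libraries lay far below every control library, including the DMSO libraries at 57.3 to 63.6 TPM. The mean fell 17.3-fold (log2 fold change −3.80 ± 0.11, adjusted p = 6.94e-11). VRK2, a related kinase of the endoplasmic reticulum and nuclear envelope, went from 27.7, 28 and 29.9 TPM to 22.7, 22.4 and 22 TPM (−0.34 ± 0.06, adjusted p = 0.000417), and its groups did not overlap. Its DMSO libraries were at 20.2 to 22.7 TPM, close to siVRK1. VRK3, a member with little catalytic activity, went from 18 to 15 TPM (−0.24 ± 0.07, adjusted p = 0.0109), with DMSO at 13.1 TPM, and limma lost this call without siCtrl library 3 (adjusted p = 0.0504) or without siVRK1 library 3 (adjusted p = 0.0528). The library labelled siVRK2 and the library labelled siVRK3 therefore had VRK1 as low as the library labelled siVRK1, and VRK2 and VRK3 moved by far less in each.

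Of 12507 genes tested, 3351 were higher with siVRK1 (26.8%) and 3505 were lower (28.0%), at an adjusted p under 0.05. Most of these changes were small. At 2-fold or more, 343 were higher (2.74%) and 466 lower (3.73%), counts that depend on the pseudocount (620 and 649 with 0.1, 125 and 227 with 5). At 4-fold or more there were 30 and 44, and at 8-fold or more 3 and 6. The median change over all genes was 0.00. The siVRK1 and siCtrl libraries did not overlap for 7897 genes (63.1%). So a list of genes needs a share well above these before it stands out, and each list below is read against 26.8% higher and 28.0% lower. Against DMSO, siVRK1 was called higher for 3766 genes (30.1%) and lower for 2329 (18.6%). The counts of a list against DMSO are read against these 2 shares, and several below lie near them. The 2 comparisons share the siVRK1 libraries, so values against each control are given side by side and are not independent.

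VAMP7 had the largest fall after VRK1, and VPS4B and COMMD2 were also among the 15 largest. VAMP7, a SNARE protein of lysosome and secretory vesicle fusion, was at 78.9, 78.8 and 79.1 TPM with siCtrl and 8.2, 5.98 and 4.61 TPM with siVRK1 (−3.49 ± 0.13, adjusted p = 5.49e-10). VPS4B, the ATPase that takes apart ESCRT filaments, was at 45, 42.5 and 47.8 TPM and 8.79, 6.31 and 5.84 TPM (−2.55 ± 0.11, adjusted p = 2.2e-09). COMMD2, a protein of the COMMD family that takes part in endosomal sorting, was at 42.1, 40.2 and 40.3 TPM and 6.04, 7.64 and 5.06 TPM (−2.55 ± 0.12, adjusted p = 4.54e-09). In each of these 3 genes every siVRK1 library was below 9 TPM and every siCtrl library above 40 TPM. The DMSO libraries lay between, at 45.4, 28.9 and 17.5 TPM, and siVRK1 was below them too (log2 fold change against DMSO −2.71 ± 0.13, −1.92 ± 0.11 and −1.36 ± 0.12). ERAP1, an aminopeptidase that trims peptides for class I molecules, fell from 24.9 to 3.74 TPM (−2.50 ± 0.17, adjusted p = 1.47e-07), with DMSO at 11.4 TPM.

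MT2A had the largest loss in TPM. It encodes the main metallothionein of many cells, a small cysteine-rich protein that holds zinc and copper. It was at 7110, 7880 and 7338 TPM with siCtrl and 858, 883 and 711 TPM with siVRK1, a 9.1-fold fall (−3.19 ± 0.07, adjusted p = 1.09e-11), with DMSO libraries at 5399 to 5560 TPM. Its neighbours did not follow. MT1X was at 186, 239 and 213 TPM and 277, 297 and 269 TPM and rose (0.41 ± 0.07, adjusted p = 0.00046), and MT1E was at 1160 and 1108 TPM with no call (−0.07 ± 0.06, adjusted p = 0.409). Metallothionein genes respond to zinc through MTF1, which binds metal response elements, and near-identical members can share reads. The promoters of MT2A and MT1X are shown because the pair moved in opposite directions while both carry such elements. Each runs from 250 bases before to 50 after the start (RefSeq, GRCh38.p14), with the element cores TGCACNC and TGCGCNC on either strand in capitals. The MT2A promoter lies on the plus strand at chr16:56608334-56608633 and holds 8 matches.
MT2A: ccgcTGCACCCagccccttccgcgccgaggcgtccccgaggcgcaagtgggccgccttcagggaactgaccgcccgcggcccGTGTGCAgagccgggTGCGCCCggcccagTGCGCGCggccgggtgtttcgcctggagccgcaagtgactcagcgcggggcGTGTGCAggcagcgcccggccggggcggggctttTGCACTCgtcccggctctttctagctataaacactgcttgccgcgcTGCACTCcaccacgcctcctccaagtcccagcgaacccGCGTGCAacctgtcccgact
The MT1X promoter lies on the plus strand at chr16:56682220-56682519 and holds 4 matches.
MT1X: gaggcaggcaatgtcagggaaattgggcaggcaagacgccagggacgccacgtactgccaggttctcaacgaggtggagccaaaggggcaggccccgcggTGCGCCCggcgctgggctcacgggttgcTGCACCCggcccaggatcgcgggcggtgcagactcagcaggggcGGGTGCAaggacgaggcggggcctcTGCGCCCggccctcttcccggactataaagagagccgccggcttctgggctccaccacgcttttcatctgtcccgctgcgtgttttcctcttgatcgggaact
These cores are short and common. They occurred in the promoters of 33.4% of 27305 genes and 46.3% of 9768 tested genes, and in 11 of 18 tested genes of the metallothionein and zinc transport list that had a promoter sequence. Of that list, 5 of 22 tested genes were higher and 6 were lower, near the shares of all genes, and 8 were higher and 2 lower against DMSO. Among the transporters, the plasma membrane importer SLC39A4 rose from 17.2 to 33.2 TPM (0.91 ± 0.09) and the Golgi transporter SLC30A7 rose from 8.94 to 15 TPM (0.69 ± 0.07). The zinc importer SLC39A9 fell from 15.3 to 7.5 TPM (−0.94 ± 0.08), and SLC30A1, the exporter that zinc induces through MTF1, fell from 7.47 to 5.96 TPM (−0.28 ± 0.08).

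A further group of large falls had DMSO libraries close to siVRK1 and far from siCtrl. COL6A3, a chain of the microfibril collagen VI, was at 63.3, 67.9 and 62.7 TPM with siCtrl, 6.4, 6.41 and 5.35 TPM with siVRK1 and 14.4 to 16.2 TPM with DMSO (against siCtrl −3.22 ± 0.09, adjusted p = 5e-11; against DMSO −1.20 ± 0.09). The lipase inhibitor ANGPTL4 was at 11.5, 10.8 and 9.73 TPM, 1.52, 1.09 and 0.864 TPM and 0.942 to 1.12 TPM, so it differed from siCtrl (−2.44 ± 0.18, adjusted p = 2.86e-07) while the test against DMSO made no call (0.08 ± 0.18, adjusted p = 0.73). The same held for the keratin KRT79 (means 12.1, 0.609 and 1.05 TPM in siCtrl, siVRK1 and DMSO; against DMSO −0.35 ± 0.14, adjusted p = 0.0586), for the protease inhibitor-like WFDC3 (32.3, 4.01 and 2.19 TPM; 0.65 ± 0.29, adjusted p = 0.0777), for AKNAD1 (9.1, 0.541 and 1.07 TPM; −0.43 ± 0.17, adjusted p = 0.0608) and for the sugar-phosphate transporter SLC37A2 (18.9, 2.68 and 3.33 TPM; −0.25 ± 0.14, adjusted p = 0.152). In these 5 genes it was the siCtrl libraries that stood apart from the other 2 groups. KLRC2, a receptor gene of natural killer cells with near-identical neighbours and so of uncertain read assignment, was at 13.9 TPM with siCtrl, 1.03 with siVRK1 and 0.321 with DMSO, and siVRK1 was above DMSO (0.61 ± 0.18, adjusted p = 0.0143). CFAP251, a ciliary protein, fell from 41.6 to 5.05 TPM with DMSO at 10.1 TPM, and MBP, myelin basic protein, fell from 25.9 to 3.34 TPM with DMSO at 7.38 TPM.

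**Figure D1:**
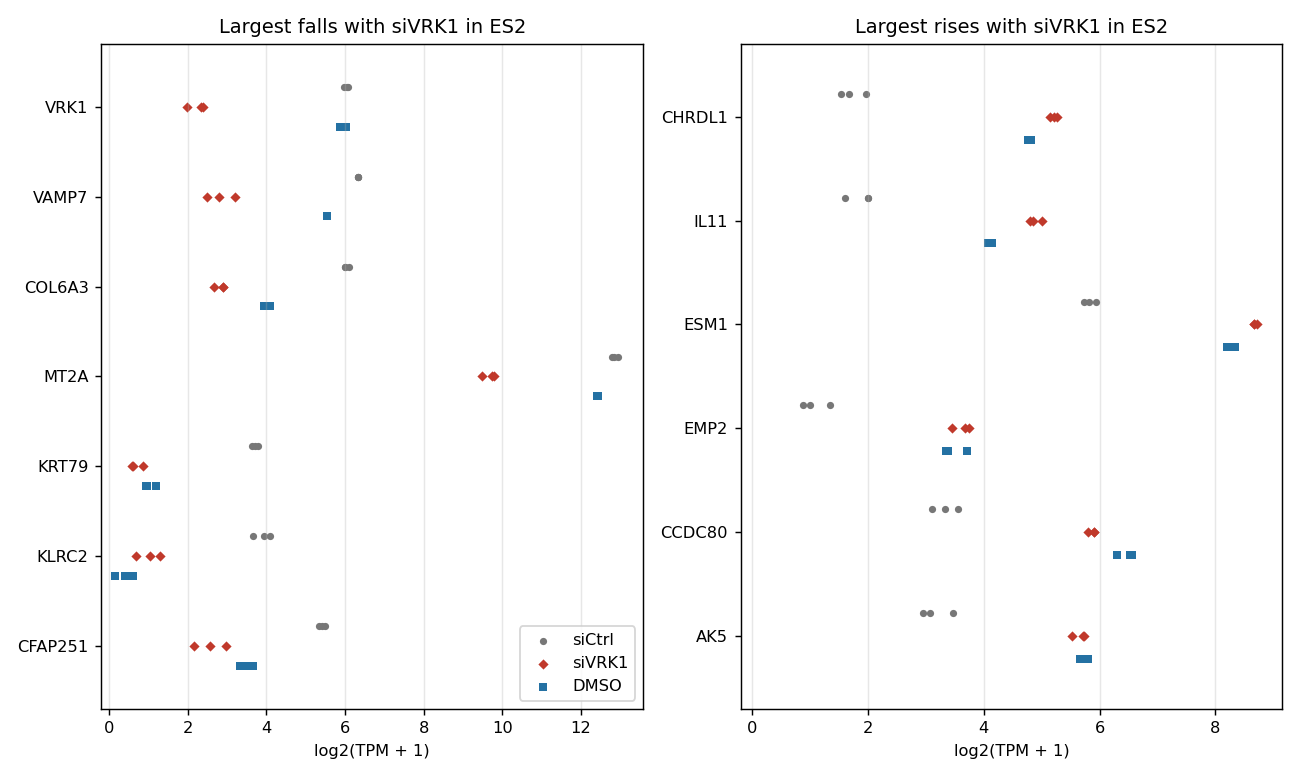
Level of genes at the top of the 15 largest falls (left) and the 15 largest rises (right) in each library. The horizontal axis is log2 of TPM + 1. The vertical axis is cut, so genes lower in each ranking are not drawn. Points are single libraries, 3 per group, for siCtrl, siVRK1 and DMSO. In VRK1, VAMP7 and MT2A the siVRK1 points stand alone, whereas in KRT79 and EMP2 the DMSO points lie with siVRK1 and the siCtrl points stand alone.

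CHRDL1, IL11 and ESM1 had the largest rises. CHRDL1, a secreted antagonist of bone morphogenetic proteins, was at 1.89, 2.89 and 2.17 TPM with siCtrl and 37.5, 34.5 and 36.2 TPM with siVRK1 (3.49 ± 0.09, adjusted p = 4.14e-11). The cytokine IL11 was at 2.04, 2.99 and 2.99 TPM and 31.3, 27.7 and 26.7 TPM (3.02 ± 0.29, adjusted p = 2.47e-06). ESM1, a proteoglycan secreted by endothelial cells, was at 52.2, 55 and 60.1 TPM and 405, 421 and 406 TPM (2.86 ± 0.06, adjusted p = 6.86e-12). In all 3 the groups were far apart and DMSO was nearer to siVRK1, at 26.5, 16.1 and 308 TPM. siVRK1 still exceeded DMSO by a smaller amount (0.43 ± 0.09, 0.79 ± 0.29 and 0.42 ± 0.06). The membrane protein EMP2 (1.13, 11.4 and 10.3 TPM in siCtrl, siVRK1 and DMSO; against DMSO 0.14 ± 0.14, adjusted p = 0.415), the adenylate kinase AK5 (8.07, 49.5 and 51.9 TPM; −0.07 ± 0.11, adjusted p = 0.616) and the MYC antagonist MXD3 (2.86, 17.5 and 13.5 TPM; 0.35 ± 0.14, adjusted p = 0.0533) differed from siCtrl and were not called against DMSO. CCDC80, a matrix protein, rose from 9.11 to 57.3 TPM and was higher still with DMSO, at 87.9 TPM. The thrombin receptor F2R rose from 9.98 to 49.5 TPM and the mitochondrial topoisomerase TOP1MT from 9.46 to 46.6 TPM, with DMSO at 43.4 and 34.5 TPM.

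Of the 15 largest rises, 11 were also called higher than DMSO, 1 (CCDC80) was called lower than DMSO and 3 were not called, and of the 15 largest falls 9 were also called lower than DMSO, 1 (KLRC2) was called higher and 5 were not called. MMP3, a secreted metalloproteinase, was at 6.63, 4.9 and 5.67 TPM with siCtrl, 29.6, 29.6 and 33.7 TPM with siVRK1 and 6.64 to 7.5 TPM with DMSO (against siCtrl 2.25 ± 0.11, adjusted p = 4.37e-09; against DMSO 1.97 ± 0.11). KISS1, the precursor of kisspeptin, was at 0.749, 0.484 and 0.675, 8.72, 6.79 and 5.96 and 1.33 to 1.67 TPM (2.31 ± 0.17, adjusted p = 2.4e-07; against DMSO 1.72 ± 0.17). The proton-sensing receptor GPR4 was at 3.32, 19.9 and 8.1 TPM (2.29 ± 0.13; against DMSO 1.20 ± 0.13), and the membrane traffic protein SYT11 at 1.8, 11.7 and 4.63 TPM (2.18 ± 0.09; against DMSO 1.17 ± 0.09). In each of these the 3 siVRK1 libraries were above all 6 control libraries. PDGFRL rose from 0.742 to 6.8 TPM, with DMSO at 3.43 TPM. TRBV10-3, a T-cell receptor segment whose reads are hard to assign, was listed at 1.01, 0 and 0.549 TPM and 5.4, 8.1 and 5.28 TPM.

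**Figure D2:**
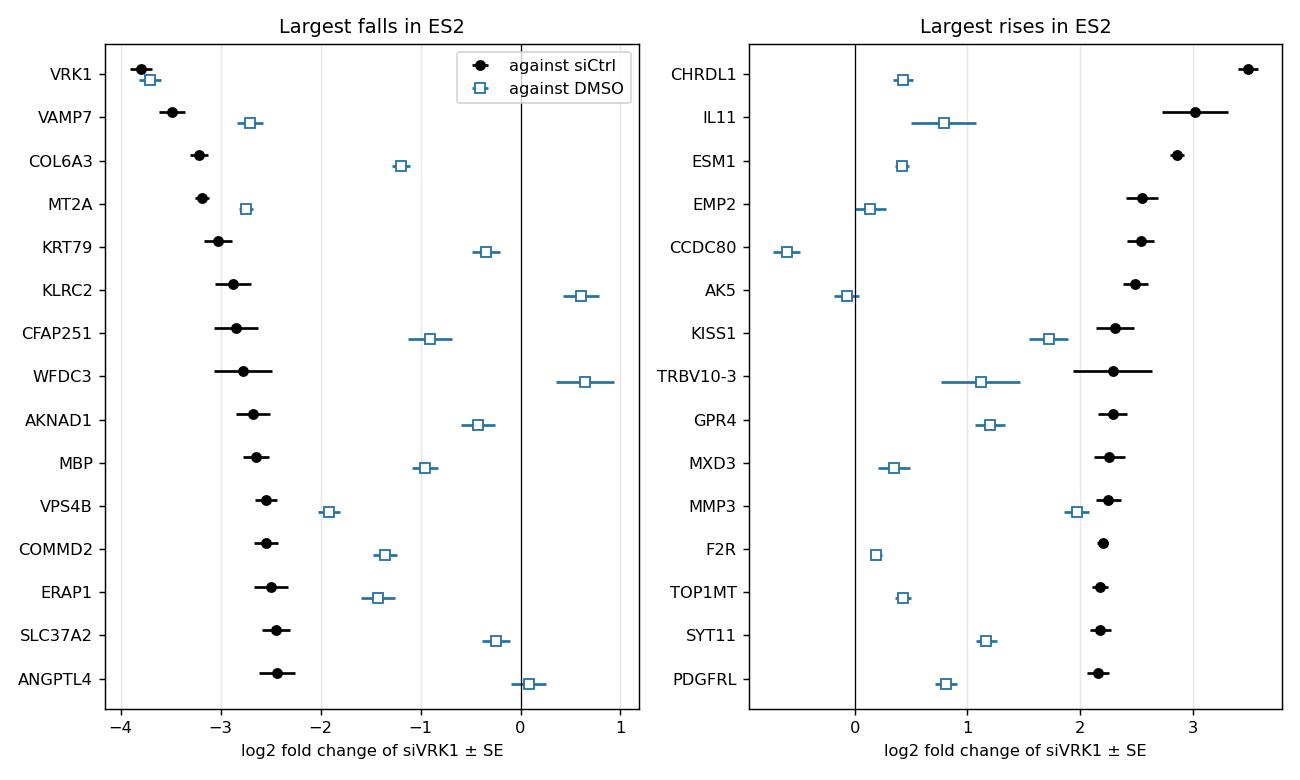
Log2 fold change of siVRK1 for the 15 genes with the largest falls and the 15 with the largest rises. Filled circles are against siCtrl and open squares against DMSO, with standard errors of the fit as bars. The 2 fold changes of a gene use the same siVRK1 libraries. For VRK1 they nearly coincide at −3.80 and −3.71 ± 0.11, and for AK5 and ANGPTL4 the value against DMSO lies close to 0.

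Cell division is the process for which VRK1 is best known, and its genes are given here list by list, against each control. In RNA from whole cultures, more cells in a phase of the cycle and more RNA per cell cannot be told apart. In the licensing and replication fork list 27 of 56 tested genes were higher (48.2%) and 8 were lower (14.3%), with a median of 0.20 and none changed 2-fold. MCM3, a subunit of the MCM helicase, was at 79.4, 79 and 82.9 TPM with siCtrl and 159, 158 and 158 TPM with siVRK1 (0.97 ± 0.05, adjusted p = 8.02e-09), with DMSO at 132 TPM. MCM6, another subunit, was at 27.8, 27.2 and 27.7 TPM and 49, 50.5 and 51.8 TPM (0.85 ± 0.04, adjusted p = 8.43e-09), with DMSO at 46.1 TPM. The sliding clamp PCNA rose from 203 to 311 TPM (0.61 ± 0.05), the polymerase subunit POLA1 from 8.08 to 14.5 TPM (0.78 ± 0.10) and the ligase LIG1 from 10.6 to 18.6 TPM (0.76 ± 0.10). The fork protein GINS1 fell from 35.6 to 22.9 TPM (−0.62 ± 0.07) and the nuclease-helicase DNA2 fell from 17.6 to 12.4 TPM (−0.48 ± 0.08), and both were also below DMSO (against DMSO −0.58 ± 0.07 and −0.67 ± 0.08). MCM7 was at 200 and 199 TPM with no call (adjusted p = 0.889). Against DMSO the list had 12 genes higher and 8 lower with a median of 0.04.

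Replication genes are typical targets of E2F, whose sites can be searched as exact words. TTTCCCGC, TTTCGCGC, TTTGCCGC or TTTGGCGC, on either strand, occurred in the promoter window of 23 of 47 replication genes with a sequence (48.9%), against 6.87% of 9768 tested genes and 3.99% of 27305 genes. The share was 10 of 22 among the replication genes that were higher, 3 of 6 among the lower and 10 of 19 among those without a call, so the words were found in each class. The windows of MCM3 and MCM6 are shown, as the helicase subunits with the largest rises, with the words in capitals. The MCM6 words overlap in pairs. The MCM3 window is on the minus strand at chr6:52284693-52284992 and holds 2 matches.
MCM3: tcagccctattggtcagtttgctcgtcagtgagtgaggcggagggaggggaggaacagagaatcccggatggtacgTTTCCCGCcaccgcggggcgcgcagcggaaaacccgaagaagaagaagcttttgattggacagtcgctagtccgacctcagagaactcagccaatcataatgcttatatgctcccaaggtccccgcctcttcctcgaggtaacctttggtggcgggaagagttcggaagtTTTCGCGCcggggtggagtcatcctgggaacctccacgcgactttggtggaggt
The MCM6 window is on the minus strand at chr2:135876394-135876693 and holds 4 matches.
MCM6: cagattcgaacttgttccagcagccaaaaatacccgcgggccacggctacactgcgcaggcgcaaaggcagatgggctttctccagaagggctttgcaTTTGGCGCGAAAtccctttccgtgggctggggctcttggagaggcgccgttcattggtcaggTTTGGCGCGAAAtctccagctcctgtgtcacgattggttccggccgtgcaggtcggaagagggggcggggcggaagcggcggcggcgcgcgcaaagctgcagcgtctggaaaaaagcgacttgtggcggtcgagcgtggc
A match describes letters in this window and is not evidence of a bound site.

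Enzymes that supply deoxynucleotides were higher more often than genes at large against siCtrl, but not against DMSO. In this list 16 of 25 were higher (64.0%) and 5 lower (20.0%), with a median of 0.35. TYMS, thymidylate synthase, was at 153, 144 and 143 TPM with siCtrl and 422, 424 and 447 TPM with siVRK1 (1.55 ± 0.07, adjusted p = 3.03e-09), with DMSO at 333 TPM. The nucleoside transporter SLC29A1 rose from 45.7 to 101 TPM (1.13 ± 0.04). TK1, thymidine kinase, rose from 30.6 to 64.4 TPM (1.05 ± 0.07) but was higher with DMSO, at 85.1 TPM. RRM2B, the p53-induced subunit of ribonucleotide reductase, was at 11.9, 10.1 and 9.83 TPM and 7.63, 4.41 and 2.69 TPM (−1.06 ± 0.22, adjusted p = 0.00149), and it was below DMSO as well (−1.15 ± 0.22). Against DMSO 7 of the list were higher and 5 lower, with a median of 0.02. The 5 genes lower against siCtrl became 3 without siCtrl library 2 or without siVRK1 library b.

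Cyclins, kinases and their inhibitors changed in both directions and by larger amounts. Of 41 tested genes 20 were higher (48.8%) and 16 lower (39.0%), 7 and 4 of them by 2-fold or more, and against DMSO 18 were higher and 14 lower. CDKN3, a phosphatase that acts on CDKs, was at 28, 31.7 and 29.9 TPM with siCtrl and 119, 126 and 130 TPM with siVRK1 (2.03 ± 0.09, adjusted p = 3.54e-09), with DMSO at 80.3 TPM. CDKN1A (p21), the inhibitor induced by p53, was at 5, 4.89 and 4.7 TPM and 15.7, 14.8 and 13.3 TPM (1.41 ± 0.16, adjusted p = 8.82e-06), and DMSO was lower than either, at 3.29 to 3.75 TPM. CDK6, a G1 kinase, was at 30.8, 31 and 30.2 TPM and 7.37, 7.33 and 7.23 TPM (−1.93 ± 0.07, adjusted p = 4.49e-10), with DMSO between at 14.9 TPM. CCNA2, the cyclin of S phase and G2, was at 61.2, 60.3 and 58.6 TPM and 26.6, 27.7 and 25.1 TPM (−1.15 ± 0.05, adjusted p = 2.41e-09), also below DMSO at 47.3 TPM. E2F8 rose from 3.11 to 10.6 TPM (1.52 ± 0.14) while E2F7, a repressor of the same subfamily, fell from 55.7 to 22.8 TPM (−1.25 ± 0.07). The inhibitor CDKN2B fell from 11.1 to 2.28 TPM with DMSO at 1.43 TPM, and the CDK-binding subunit CKS2 fell from 573 to 343 TPM (−0.74 ± 0.05).

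Of 46 mitotic genes 28 were higher (60.9%) and 7 lower (15.2%), with a median of 0.16. PRC1, a microtubule-bundling protein of cytokinesis, was at 35.5, 32.9 and 35.2 TPM with siCtrl, 112, 114 and 113 TPM with siVRK1 and 110 to 114 TPM with DMSO (1.68 ± 0.04, adjusted p = 3.91e-11; against DMSO 0.01 ± 0.04). The kinesin KIF20A rose from 18.6 to 49.9 TPM (1.38 ± 0.06), with DMSO at 39.7 TPM. KIF14 fell from 13.5 to 8.64 TPM (−0.59 ± 0.06) and the centrosomal kinase NEK2 fell from 43.1 to 33.7 TPM (−0.35 ± 0.05), both also below DMSO. Against DMSO, 7 of the 46 were higher and 18 lower, with a median of −0.07, so the direction of this list depended on the control. At the kinetochore, 15 of 39 genes were higher (38.5%) and 10 lower (25.6%) against siCtrl, but 4 were higher and 12 lower against DMSO. No member rose 2-fold, and several fell by more. SKA2, which holds kinetochores to microtubules, was at 123, 121 and 119 TPM and 27.8, 23.1 and 18.9 TPM (−2.34 ± 0.12, adjusted p = 6.88e-09), CENPQ at 38.1, 38.7 and 38.5 TPM and 10.8, 9.45 and 11.7 TPM (−1.76 ± 0.12, adjusted p = 1.02e-07), and the MIS12 complex subunit NSL1 at 41.8 and 17.1 TPM (−1.24 ± 0.07, adjusted p = 1.31e-08). DMSO libraries were at 115, 25.2 and 34.1 TPM, above siVRK1 in all 3. DSN1, another MIS12 complex subunit, rose from 37.3 to 57.8 TPM (0.62 ± 0.09).

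Genes of the nuclear envelope and proteins known as VRK1 substrates were higher more often than genes at large. Of 31, 16 were higher (51.6%, against 26.8% of all genes) and 6 lower (19.4%), of which the rise of ATF2 reached 2-fold, and against DMSO 12 were higher and 9 lower. BANF1 was at 618, 628 and 594 TPM with siCtrl and 685, 690 and 668 TPM with siVRK1 (0.15 ± 0.04, adjusted p = 0.0114), with DMSO higher at 798 TPM. ATF2, a transcription factor that VRK1 phosphorylates, went from 7.76 to 16.5 TPM (1.0 ± 0.08), and the acetyltransferase KAT5 (TIP60) from 26.7 to 41.6 TPM (0.62 ± 0.08). Coilin, COIL, the scaffold of Cajal bodies, fell from 27.4 to 16.6 TPM (−0.69 ± 0.06), with DMSO at 14.2 TPM. The lamins moved apart, since LMNB2 rose from 104 to 194 TPM (0.89 ± 0.03) and LMNA fell from 205 to 158 TPM (−0.37 ± 0.04). Among histone variants, chaperones and HMG proteins 9 of 28 were higher and 12 lower (11 and 9 against DMSO), and HMGB2 rose from 237 to 477 TPM (1.01 ± 0.04) while the linker histone H1-10 fell from 63 to 38.5 TPM (−0.70 ± 0.10). In condensins, cohesin and topoisomerases 11 of 26 were higher (42.3%) and 1 lower (3.85%), or 2 lower without siCtrl library 3, but 6 were higher and 9 lower against DMSO. In homologous recombination and the Fanconi pathway 14 of 35 were higher (40.0%) against siCtrl and 12 against DMSO, and 4 were lower against DMSO. The 2 lower against siCtrl (5.71%) were BRCA1 (from 26.8 to 20.4 TPM, −0.37 ± 0.09) and RAD51C (from 85.6 to 66.8 TPM, −0.35 ± 0.09).

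Targets of p53 did not move one way, with 7 of 29 higher and 6 lower against siCtrl and 10 and 6 against DMSO. CDKN1A rose, as above, as did the nuclease AEN (from 36.1 to 58 TPM, 0.67 ± 0.08). MDM2, the ubiquitin ligase of p53, was at 23.9, 16.9 and 19.7 TPM with siCtrl and 8.91, 5.36 and 5.13 TPM with siVRK1 (−1.53 ± 0.17, adjusted p = 8.67e-06), and PLK2 was at 130, 128 and 124 TPM and 50.5, 53 and 57 TPM (−1.24 ± 0.09, adjusted p = 2.12e-07). Both were also below DMSO, which was at 18 and 134 TPM. The proapoptotic BAX was at 143 and 153 TPM with no call (adjusted p = 0.167).

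Most cytosolic ribosomal protein genes were higher against siCtrl, by small amounts. Of 79, 63 were higher (79.7%), 4 lower (5.06%) and 12 without a call, with a median of 0.24, and their sum went from 229824 to 233045 TPM with siCtrl to 270685 to 273797 TPM with siVRK1. DMSO libraries summed to 267946 to 271952 TPM, overlapping siVRK1, and against DMSO 24 were higher and 22 lower with a median of 0.01. RPL5, which binds 5S rRNA and, when free, MDM2, was at 2393, 2369 and 2393 TPM with siCtrl, 1011, 1021 and 1016 TPM with siVRK1 and 2627 to 2743 TPM with DMSO. It fell 2.35-fold (−1.23 ± 0.03, adjusted p = 8.73e-12; against DMSO −1.41 ± 0.03). The other 3 lower genes, RPL15, RPS16 and FAU, were at −0.07, −0.06 and −0.07, and these 3 calls were lost with median-of-ratios scaling (limma adjusted p = 0.128, 0.15 and 0.112). The number of lower members was 7 with quantile normalization, and 1 or 2 without siCtrl library 2 or 3 or without siVRK1 library a or b. RPL11, the partner of RPL5 in the 5S particle, rose from 2422 to 3307 TPM (0.45 ± 0.03, adjusted p = 1.77e-07), above DMSO at 2437 TPM. RPSA, the largest rise of the list, went from 1566 to 2294 TPM (0.55 ± 0.03). Processed pseudogenes of ribosomal protein genes are many, so the split of reads among copies is uncertain. In ribosome biogenesis 14 of 35 were higher and 8 lower (11 and 7 against DMSO), among them the RNA polymerase I subunit POLR1A, which rose from 16.6 to 34.5 TPM (1.02 ± 0.10).

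**Figure D3:**
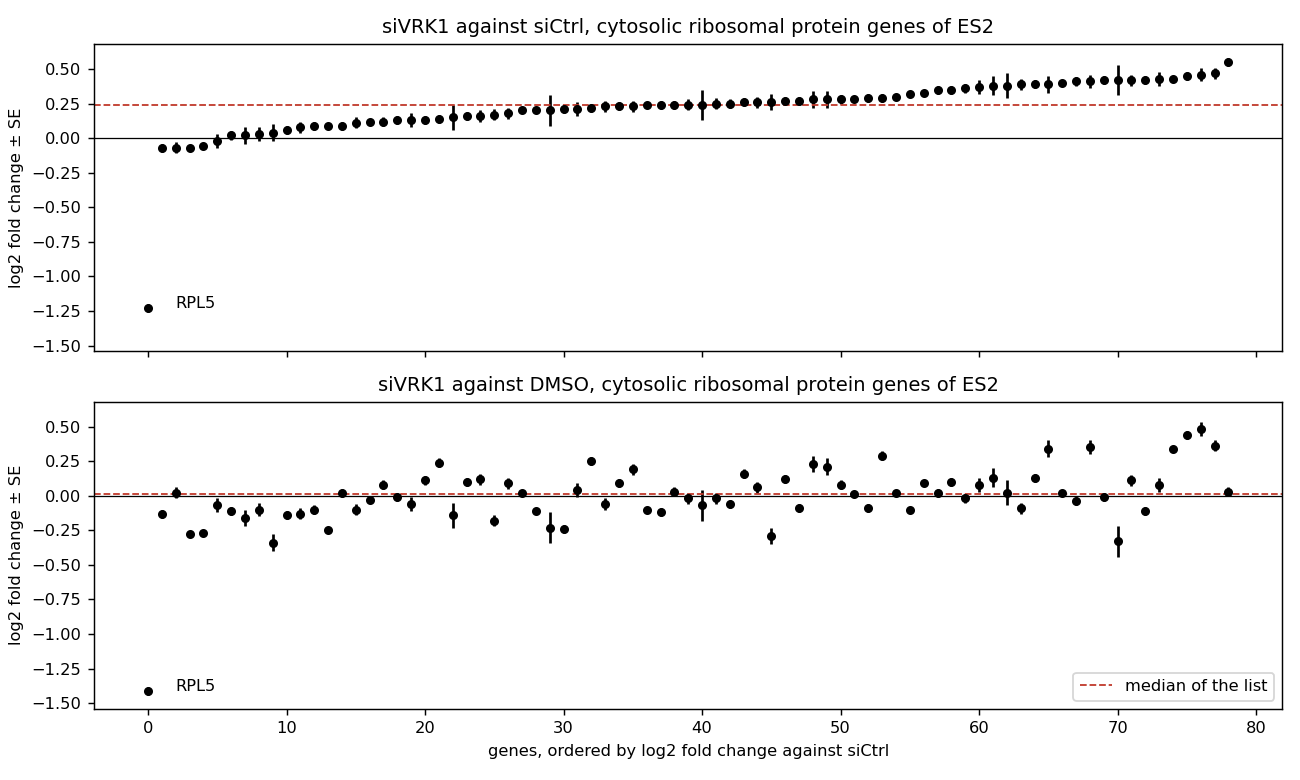
Log2 fold change of siVRK1 against siCtrl (upper panel) and against DMSO (lower panel) for the 79 cytosolic ribosomal protein genes, ordered by the upper panel, with standard errors as bars. RPL5 lies at −1.23 against siCtrl and −1.41 against DMSO, apart from all others, and the median of the list is 0.24 in the upper panel and 0.01 in the lower.

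The heat shock and cytosolic chaperone list was lower almost as a whole, and this held against both controls. The list also holds the mitochondrial chaperones HSPA9, HSPD1 and HSPE1 and the heat shock factors HSF1 and HSF2. Of 33 tested genes 30 were lower (90.9%, against 28.0% of all genes) and 2 higher (6.06%), with a median of −0.30. HSP90AA1, the inducible HSP90, was at 837, 838 and 882 TPM with siCtrl, 472, 483 and 459 TPM with siVRK1 and 1392 to 1493 TPM with DMSO (−0.85 ± 0.03, adjusted p = 1.37e-09; against DMSO −1.63 ± 0.03). HSPA1A, the inducible HSP70, which shares most of its sequence with HSPA1B, was at 54.5, 58 and 55.7 TPM and 28, 28.9 and 22.8 TPM (−1.06 ± 0.07, adjusted p = 1.39e-07), with DMSO at 56.2 to 56.7 TPM. DNAJB6, an HSP40 co-chaperone, was at 638, 639 and 629 TPM and 287, 283 and 265 TPM (−1.19 ± 0.06, adjusted p = 1.28e-08), and the heat shock factor HSF2 at 16.6, 14.4 and 16.2 TPM and 4.09, 4.67 and 3.93 TPM (−1.68 ± 0.08, adjusted p = 6.58e-09). The 2 exceptions were HSPB1 (0.16 ± 0.04) and the chaperonin subunit CCT8 (0.19 ± 0.03). The chaperone list summed to 15486 to 15687 TPM with siCtrl, 12554 to 12649 TPM with siVRK1 and 15438 to 15993 TPM with DMSO. Against DMSO 29 of the 33 were lower and 0 higher, with 18.6% of all genes lower and a median for the list of −0.25. At an unadjusted p under 0.05 limma also put 0 higher, and HSPB1 and CCT8 were at −0.33 ± 0.04 and −0.13 ± 0.03 against DMSO.

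In the ER chaperone and degradation list 18 of 30 were lower (60%) and 5 higher (16.7%), for example HERPUD1, an ER stress gene, from 68 to 36.9 TPM (−0.86 ± 0.20) and EDEM1 from 28.9 to 18 TPM (−0.66 ± 0.09). Against DMSO 5 were higher and 5 lower. In the ESCRT machinery, which buds and cuts membranes and reseals the nuclear envelope, 12 of 30 were lower (40.0%) and 5 higher (16.7%). After VPS4B, the ESCRT-II subunit VPS36 fell from 20.4 to 7.25 TPM (−1.39 ± 0.14) and VTA1, a cofactor of VPS4, was at 72.9, 67.4 and 69.4 TPM with siCtrl and 34.6, 36.9 and 36.4 TPM with siVRK1 (−0.94 ± 0.06, adjusted p = 5.14e-08). VPS4A, the paralog of VPS4B, was at 33.2 and 35.7 TPM with no call (0.10 ± 0.05, adjusted p = 0.133). MVB12B rose from 2.87 to 5.38 TPM (0.72 ± 0.13). Against DMSO the list had 15 higher and 6 lower. In the lysosome and autophagy list 13 of 49 were higher and 18 lower against siCtrl, and 31 were higher and 3 lower against DMSO. The cathepsin CTSH rose from 26.3 to 84.4 TPM (1.65 ± 0.05) and the autophagy receptor SQSTM1 fell from 173 to 94.8 TPM (−0.87 ± 0.09).

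**Figure D4:**
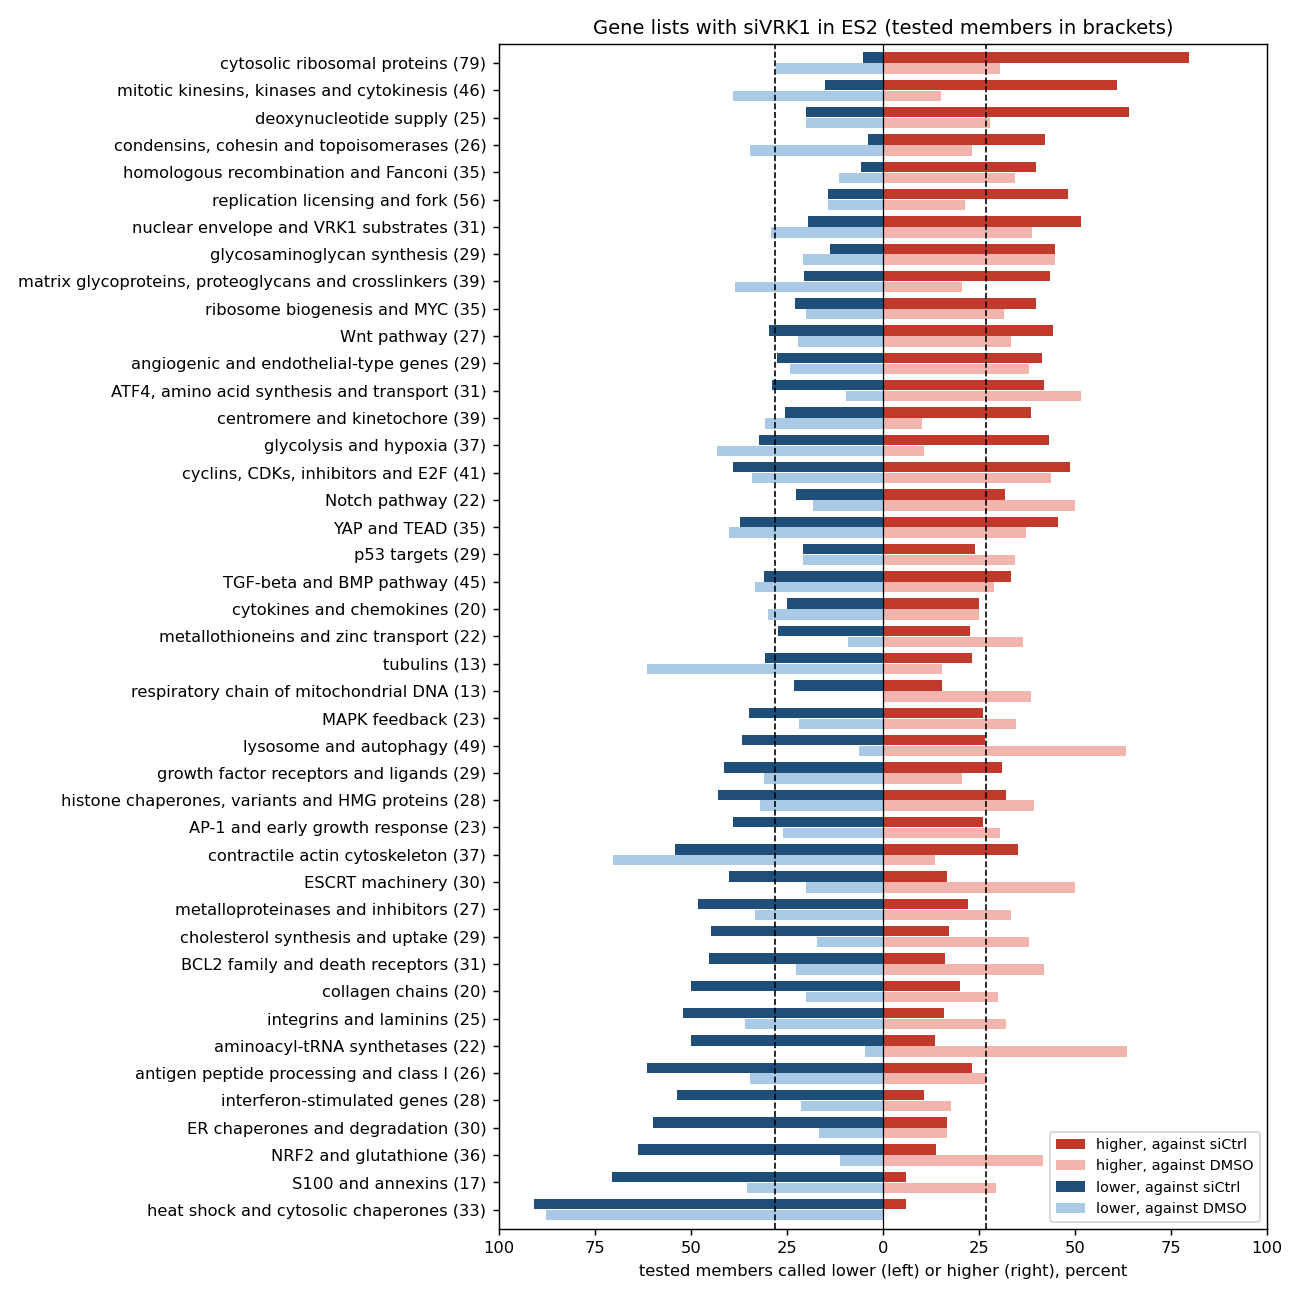
Share of tested members called higher (right) and lower (left) with siVRK1 for each pathway list with 10 or more tested members, against siCtrl (dark) and against DMSO (light), in percent. Dashed lines mark the shares among all tested genes, 26.8% higher and 28.0% lower against siCtrl. They do not apply to the light bars, for which the shares were 30.1% and 18.6%. Chaperones are lower in both comparisons, while ribosomal proteins and deoxynucleotide enzymes are higher in 63 of 79 and 16 of 25 against siCtrl and in 24 and 7 against DMSO.

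Matrix genes changed in both directions. Of 20 collagen chains 10 were lower (50%) and 4 higher (20.0%) against siCtrl, while 4 were lower and 6 higher against DMSO. Next to COL6A3, COL5A2 fell from 12.4 to 3.61 TPM (−1.55 ± 0.15) and COL1A1 from 84.6 to 53.4 TPM (−0.65 ± 0.13), whereas COL5A1 was at 151, 175 and 155 TPM with siCtrl and 272, 261 and 265 TPM with siVRK1 and rose (0.73 ± 0.07, adjusted p = 1.65e-06). Of 27 metalloproteinases, plasminogen system genes and inhibitors, 13 were lower (48.1%) and 6 higher (22.2%) against siCtrl, and 9 were lower and 9 higher against DMSO. The collagenase MMP1 was at 6925, 6930 and 7157 TPM and 3231, 3267 and 3240 TPM (−1.11 ± 0.03, adjusted p = 1.2e-11), with DMSO at 4843 TPM. MMP2, a gelatinase, fell from 80.6 to 25.3 TPM (−1.63 ± 0.09) but was lower still with DMSO, at 15.7 TPM. The plasminogen activators fell as well, PLAT from 408 to 120 TPM (−1.76 ± 0.06; DMSO 345 TPM) and PLAU from 586 to 253 TPM (−1.21 ± 0.04; DMSO 244 TPM). SERPINE2 rose from 8.53 to 28.3 TPM (1.62 ± 0.10), above DMSO at 10.3 TPM, and TIMP1 rose from 273 to 411 TPM (0.59 ± 0.04). The metalloproteinases and inhibitors summed to 10479 to 10777 TPM with siCtrl and 5399 to 5462 TPM with siVRK1, mostly through MMP1.

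Of 39 matrix glycoproteins, proteoglycans and crosslinkers, 17 were higher (43.6%) and 8 lower (20.5%) against siCtrl, but 8 were higher and 15 lower against DMSO. Fibronectin, FN1, was at 54.4, 58.5 and 51.1 TPM with siCtrl and 161, 153 and 138 TPM with siVRK1 (1.45 ± 0.06, adjusted p = 1.81e-09), and DMSO was higher, at 254 TPM. The syndecan SDC4, a heparan sulfate proteoglycan of the cell surface, was at 52.6, 52 and 51.9 TPM and 13.2, 12.9 and 12.7 TPM (−1.93 ± 0.09, adjusted p = 4.07e-09), below DMSO at 44.6 TPM. SPARC, a collagen-binding protein, fell from 834 to 573 TPM (−0.54 ± 0.04) but was at 209 TPM with DMSO, so siVRK1 lay between the controls. Integrins and laminins had 13 of 25 lower (52.0%) and 4 higher (16%) against siCtrl, and 9 lower and 8 higher against DMSO, among them ITGA3, which fell from 198 to 122 TPM (−0.69 ± 0.06), and ITGB1, which rose from 554 to 747 TPM (0.43 ± 0.03). Enzymes of glycosaminoglycan synthesis had 13 of 29 higher (44.8%) and 4 lower (13.8%), with 13 and 6 against DMSO, for example the chondroitin enzyme CHPF, from 15.8 to 47.9 TPM (1.54 ± 0.06), with DMSO at 51.1 TPM.

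The list of YAP and TEAD, the effectors of Hippo signalling, split by gene. It holds pathway members such as YAP1, LATS1 and the TEAD factors beside genes that follow them. Of 35, 16 were higher (45.7%) and 13 lower (37.1%), with 13 and 14 against DMSO. ANKRD1 was at 680, 671 and 667 TPM with siCtrl, 140, 150 and 138 TPM with siVRK1 and 98.7 to 111 TPM with DMSO (−2.23 ± 0.06, adjusted p = 3.14e-11; against DMSO 0.45 ± 0.06). CCN1 and CCN2, secreted matricellular proteins, behaved otherwise. CCN2 was at 665, 645 and 662 TPM, 330, 335 and 301 TPM and 775 to 795 TPM (−1.03 ± 0.12, adjusted p = 1.15e-05; against DMSO −1.29 ± 0.12), and CCN1 at 864, 414 and 1017 TPM (−1.06 ± 0.09; against DMSO −1.29 ± 0.09), so for both siVRK1 was below either control. TEAD1 rose from 9.26 to 23.6 TPM (1.26 ± 0.09) and tissue factor, F3, rose from 5.46 to 18.7 TPM (1.61 ± 0.13). Of 37 genes of the contractile actin cytoskeleton 20 were lower (54.1%) and 13 higher (35.1%), and against DMSO 26 were lower and 5 higher with a median of −0.42. ACTB fell from 3980 to 2834 TPM (−0.49 ± 0.05; DMSO 4488 TPM) and the actin-bundling SYNPO fell from 32.9 to 8.79 TPM (−1.79 ± 0.05; DMSO 25.7 TPM). NEXN rose from 13.5 to 52.3 TPM (1.88 ± 0.06) and talin, TLN1, from 27.4 to 63 TPM (1.17 ± 0.08), and DMSO was higher than siVRK1 for both, at 73.3 and 88 TPM.

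The TGF-beta and BMP list had 15 of 45 higher (33.3%) and 14 lower (31.1%), near the shares of all genes, and 13 and 15 against DMSO. Antagonists were among its rises, CHRDL1 as above and follistatin, FST, at 23.8, 25.3 and 25.2 TPM with siCtrl and 79.8, 73.5 and 69.4 TPM with siVRK1 (1.54 ± 0.05, adjusted p = 4.45e-10), with DMSO at 87.9 TPM. Feedback and effector genes were among its falls, although others of these kinds, such as SMURF1, SMURF2 and SMAD2, were called higher. SMAD7, the inhibitory SMAD, was at 8.63, 6.29 and 6.31 TPM and 1.22, 1.1 and 0.645 TPM (−2.02 ± 0.23, adjusted p = 9.09e-06), with DMSO at 1.65 TPM, and TGFBI at 303, 292 and 298 TPM and 68.9, 68.9 and 69.2 TPM (−2.09 ± 0.07, adjusted p = 3.35e-10), with DMSO at 63.6 TPM. SMAD1, a BMP effector, fell from 12.6 to 3.45 TPM (−1.62 ± 0.10) and was below DMSO at 8.76 TPM.

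The MAPK feedback list also split, with 6 of 23 higher (26.1%) and 8 lower (34.8%), and 8 and 5 against DMSO. Besides feedback regulators it holds other targets of the pathway, such as CCND1, ETV4 and IER3 (lower) and PHLDA1 (higher). DUSP10, a phosphatase of p38 and JNK, was at 4.09, 3.96 and 4.74 TPM with siCtrl, 14.9, 17.9 and 19.3 TPM with siVRK1 and 2.16 to 3.14 TPM with DMSO (1.80 ± 0.21, adjusted p = 1.56e-05; against DMSO 2.33 ± 0.21). SPRY2 rose from 56.1 to 93.3 TPM (0.73 ± 0.05) and the ERK phosphatase DUSP5 from 65.3 to 111 TPM (0.76 ± 0.12), both above DMSO at 57.5 and 55.3 TPM, while DUSP6, another ERK phosphatase, fell from 75.8 to 49.1 TPM (−0.62 ± 0.12). AP-1 and early growth response genes had 6 of 23 higher and 9 lower (7 and 6 against DMSO), with JUN at 113 and 136 TPM (0.26 ± 0.04). Of 29 growth factors and receptors 9 were higher (31.0%) and 12 lower (41.4%), with 6 and 9 against DMSO. The neurotrophin BDNF rose from 3.33 to 11.8 TPM (1.57 ± 0.08) and PDGFC from 34.2 to 74.5 TPM (1.10 ± 0.06), and the EGF receptor ligand EREG fell from 15.2 to 4.61 TPM (−1.53 ± 0.09). In the Wnt list 12 of 27 were higher (44.4%) and 8 lower (29.6%), with 9 and 6 against DMSO. SFRP1, a secreted Wnt antagonist, was at 122, 119 and 121 TPM, 234, 237 and 240 TPM and 126 to 129 TPM (0.97 ± 0.04, adjusted p = 2.43e-09; against DMSO 0.89 ± 0.04), and the antagonist DKK1 rose from 210 to 341 TPM (0.70 ± 0.07; DMSO 250 TPM).

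Interferon-stimulated and class I genes were lower more often than genes at large against siCtrl, while cytokines and chemokines were not. Interferon-stimulated genes were lower in 15 of 28 (53.6%) and higher in 3 (10.7%), for example IFIT3, 9.8, 8.46 and 9.84 TPM with siCtrl and 2.92, 2.5 and 2.83 TPM with siVRK1 (−1.46 ± 0.11, adjusted p = 2.11e-07), with DMSO at 2.3 to 2.74 TPM. Against DMSO 5 of the list were higher and 6 lower. Antigen processing and class I genes were lower in 16 of 26 (61.5%) and higher in 6 (23.1%) against siCtrl, and lower in 9 and higher in 7 against DMSO. Besides ERAP1, the immunoproteasome subunit PSMB9 was at 9.38, 7.88 and 10.2 TPM and 2.23, 2.49 and 2.31 TPM (−1.60 ± 0.13, adjusted p = 4.36e-07), below DMSO at 7.57 to 9.17 TPM, while B2M, the light chain of class I, rose from 1209 to 1352 TPM (0.16 ± 0.04). CD274 (PD-L1), the checkpoint ligand, was at 25.7, 24.9 and 25.3 TPM, 47.2, 46.8 and 48.9 TPM and 20.4 to 21 TPM (0.89 ± 0.11, adjusted p = 3.12e-05; against DMSO 1.16 ± 0.11), so siVRK1 exceeded both controls. Its neighbour on chromosome 9, PDCD1LG2 (PD-L2), which is outside the rule for named genes and was chosen after its values were seen, was at 14.5, 13.1 and 13.2 TPM, 46.4, 42.6 and 47.7 TPM and 11.1 to 12.9 TPM (1.67 ± 0.08, adjusted p = 3.63e-09). Among 20 cytokines and chemokines, 5 were higher (3 without siVRK1 library b) and 5 lower, with 5 and 6 against DMSO. The higher ones included IL11, given above among the largest rises, and CXCL8. The lower ones included IL1A, from 4.9 to 0.425 TPM (−2.05 ± 0.12; DMSO 0.142 TPM), and CSF3, from 9.39 to 3.73 TPM (−1.14 ± 0.13; DMSO 4.42 TPM).

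Lists of stress and metabolism differed among themselves and between the controls. In the NRF2 and glutathione list 23 of 36 were lower (63.9%) and 5 higher (13.9%), and against DMSO 4 were lower and 15 higher. AKR1C3, an aldo-keto reductase with near-identical relatives, was at 27.5, 25 and 24.5 TPM with siCtrl, 6.59, 5.29 and 6.57 TPM with siVRK1 and 5.16 to 6.27 TPM with DMSO (−1.90 ± 0.10, adjusted p = 1.23e-08). HMOX1, heme oxygenase, went the other way, at 16.1, 14.6 and 14 TPM, 53.9, 59 and 61.9 TPM and 16.7 to 18.2 TPM (1.90 ± 0.07, adjusted p = 6.01e-10; against DMSO 1.67 ± 0.07), and the ferritin chain FTH1 rose with it, from 1387 to 1861 TPM (0.43 ± 0.05; DMSO 1189 TPM). All 7 tested genes of the aryl hydrocarbon receptor axis were lower against siCtrl, with a median of −0.92, of which NQO1 went from 242 to 123 TPM (−0.97 ± 0.04; DMSO 159 TPM) and the receptor AHR from 8.27 to 2.87 TPM (−1.29 ± 0.20; DMSO 3.82 TPM). In that list 3 were lower and 1 higher against DMSO. Cholesterol synthesis and uptake had 13 of 29 lower (44.8%) and 5 higher against siCtrl, but 5 lower and 11 higher against DMSO. INSIG1, which restrains the pathway, fell from 92.3 to 42.2 TPM (−1.11 ± 0.06), with DMSO at 33.9 TPM. S100 proteins and annexins had 12 of 17 lower (70.6%) and 1 higher against siCtrl, and 6 lower and 5 higher against DMSO, and ANXA1 fell from 900 to 629 TPM (−0.52 ± 0.07) with DMSO at 317 TPM. Glycolysis and hypoxia genes had 16 of 37 higher and 12 lower against siCtrl, but 4 higher and 16 lower against DMSO, and GAPDH was at 4841 and 4712 TPM with no call (adjusted p = 0.242).

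The siVRK1 effect in ES2 was set against that in A2780 by the difference of the 2 effects, fitted over all 24 libraries and tested for 14328 genes. Both effects are against the siCtrl libraries of the line, and a difference against DMSO was not fitted. In ES2 against DMSO the replication and mitotic lists had medians of 0.04 and −0.07. The effect was called more positive in ES2 than in A2780 for 2962 genes (20.7%) and more negative for 1897 (13.2%), a split that depends on the scaling, since median-of-ratios scaling gave 2242 and 2771. VRK1 fell in both lines, and further in ES2 (−3.80 ± 0.11 against −2.40 ± 0.11 in A2780, difference −1.40 ± 0.16, adjusted p = 1.08e-06). In the replication list 46 of 56 genes were more positive in ES2 and 0 more negative. PCNA rose in ES2 and fell in A2780 (0.61 ± 0.05 and −0.46 ± 0.04, difference 1.07 ± 0.07, adjusted p = 4.52e-10), and MCM6 likewise (0.85 ± 0.04 and −0.53 ± 0.06, difference 1.38 ± 0.07, adjusted p = 1.07e-11). Of mitotic genes 41 of 46 were more positive and 0 more negative, among them KIF20A (1.38 ± 0.06 in ES2 and −0.15 ± 0.14 in A2780, difference 1.53 ± 0.16, adjusted p = 3.78e-07). In condensins, cohesin and topoisomerases, a list that also holds the chromosome-coating protein MKI67, the counts were 19 of 26 and 0. MKI67 rose in ES2 and fell in A2780 (0.83 ± 0.08 and −0.54 ± 0.13, difference 1.37 ± 0.17, adjusted p = 2.28e-06). The counts in homologous recombination were 27 of 35 and 0. For each of these 4 lists limma also put 0 genes in the negative direction at an unadjusted p under 0.05. In the contractile actin list 24 of 37 were more negative in ES2 and 5 more positive.

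Several of the falls above were also seen in A2780. RPL5 fell in A2780 too (−0.80 ± 0.03), by less than in ES2 (difference −0.43 ± 0.03, adjusted p = 4.24e-09), and so did SKA2 (−1.67 ± 0.09, difference −0.67 ± 0.16, adjusted p = 0.00246), VAMP7 (−1.22 ± 0.09, difference −2.27 ± 0.16, adjusted p = 1.63e-09) and MT2A (−2.35 ± 0.18, difference −0.84 ± 0.21, adjusted p = 0.00397). ERAP1 fell in both lines, and the test of its difference made no call (−2.50 ± 0.17 in ES2 and −2.12 ± 0.11 in A2780, difference −0.39 ± 0.22, adjusted p = 0.183). The same was true of CDKN1A, which rose in both (1.41 ± 0.16 and 1.03 ± 0.07, difference 0.38 ± 0.18, adjusted p = 0.107), and of CCNA2, which fell in both (−1.15 ± 0.05 and −1.05 ± 0.09, difference −0.10 ± 0.11, adjusted p = 0.506). A difference that misses the threshold does not show that the lines respond alike. Opposite calls were counted only among genes without overlap between the ES2 groups and with at least 5 TPM in the higher group. Names such as LOC, LINC, antisense or pseudogene names were left out. In 509 such genes the effect was called in both lines with opposite sign and the difference was called. Of these, 368 were higher in ES2 and 141 lower, a split not counted under other scalings. CCN2 fell in ES2 and rose in A2780 (−1.03 ± 0.12 and 2.31 ± 0.08, difference −3.34 ± 0.15, adjusted p = 2.1e-12), and COL6A3 did the same (−3.22 ± 0.09 and 0.39 ± 0.07, difference −3.61 ± 0.11, adjusted p = 8.15e-15). MMP3 rose in ES2 and fell in A2780 (2.25 ± 0.11 and −0.54 ± 0.11, difference 2.79 ± 0.15, adjusted p = 5.51e-11).

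**Figure D5:**
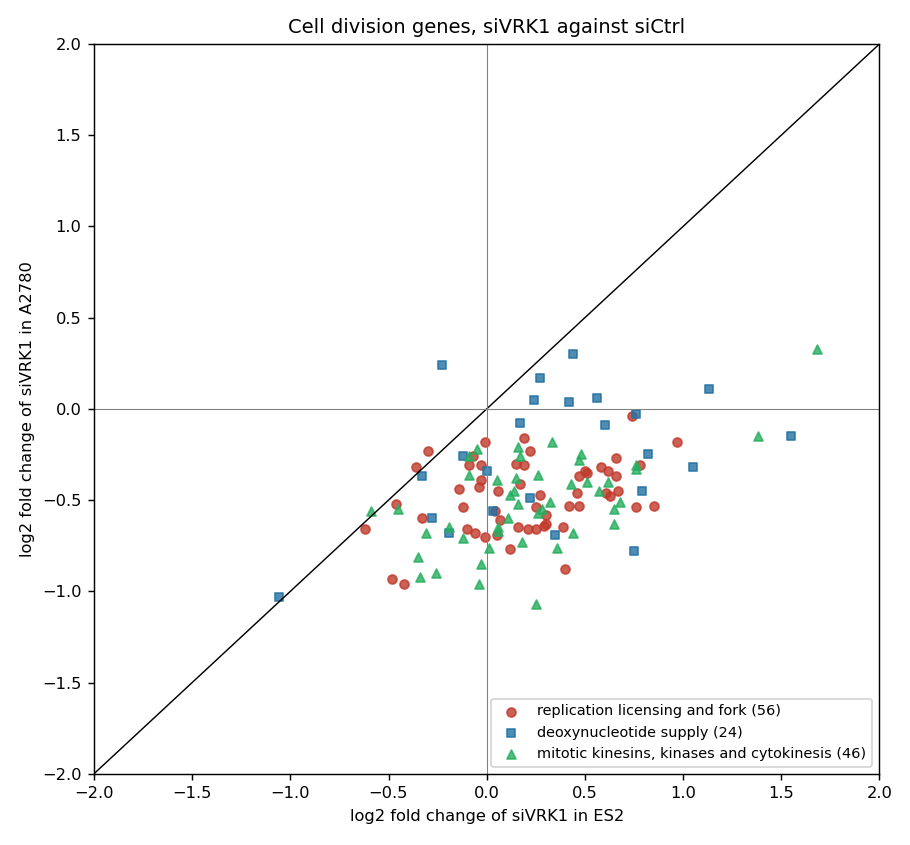
Log2 fold change of siVRK1 against siCtrl in ES2 (horizontal axis) and in A2780 (vertical axis) for the replication, deoxynucleotide and mitotic lists, 1 point per gene, with the diagonal of equal effects. Most points lie below the diagonal, with ES2 values around or above 0 and A2780 values mostly below 0.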

How the data were processed

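RNA-seq was measured in 24 libraries. The deposited table holds transcript TPM, which the authors made with kallisto after FastQC, with hg19 named as the build, per the submitters' processing notes. No source used here gives read depth or tool versions. Standard errors came from spread among all libraries of a fit and across genes, and not from the 3 libraries of a group alone. The 193845 lines held 191887 distinct transcripts, and the 1958 repeated lines were identical and used once. TPM were summed by gene symbol into 28907 genes. The 9542 transcripts without a symbol and the 19 with more than 1 symbol were left out, which removed 0.514% to 1.03% of TPM.

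Tests used limma 3.58.1 in R 4.3.3, with a trended prior variance, on log2(TPM + 1). The siVRK1 effect in ES2 was fitted over the 12 ES2 libraries for genes of at least 1 TPM in at least 3 of them. The difference between lines was fitted over all 24 libraries under the same filter. Tests were two-sided, and a call is a Benjamini-Hochberg adjusted p under 0.05. Recovery was measured on simulated data with changes added to 100 genes per fold. The ES2 fit over 12368 genes called 98% of the 2-fold and 83% of the 1.5-fold changes. The difference between lines, over 14141 genes, called 83% and 51%. In each case 10 unchanged genes were also called. The changes were added only to genes with a mean of at least 5 TPM over the libraries of the fit. The shares were not split by level, and they do not give the recovery for genes near 1 TPM.

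The members and lists were chosen with earlier results of these data known. The comparison with DMSO was added after these files were seen. Genes named are VRK1 to VRK3, the 15 largest rises and falls without overlap between groups and with at least 5 TPM in the higher group, the 8 largest gains and losses of TPM, up to 4 rises, 4 falls and 2 abundant members of each list, all members of lists of 13 or fewer, and, between lines, the first 10 rises and falls and the 5 largest differences each way among genes called in opposite directions. The genes called in opposite directions met the same conditions on overlap and level. Names such as LOC, LINC, antisense or pseudogene names were left out of the ranked sets. Not every gene the rule allows is printed. Promoters are RefSeq windows of GRCh38.p14 matched by symbol, since the files give hg19 and no coordinates. Alternatives changed the pseudocount, filter, scaling, libraries, prior, replicate block and single libraries.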

Additional observations from a re-analysis of the deposited data

Results flagged for a closer look

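The effect of siVRK1 differed between ES2 and A2780 for 28 named genes, by limma's test of the difference between lines (adjusted p under 0.05). They were picked for large effects in ES2 or for opposite effects in the lines, so their number describes the choice and is no rate. Differences below are the ES2 effect minus the A2780 effect on the log2 scale, with the standard error. Both effects are against siCtrl alone. For EMP2, AK5, MXD3, KRT79, WFDC3 and AKNAD1, siVRK1 was not called against DMSO in ES2, and for CCDC80 and KLRC2 it was called in the opposite direction.

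Among the largest ES2 rises, CHRDL1 (3.47 ± 0.19, adjusted p = 6.08e-11), IL11 (2.94 ± 0.34, adjusted p = 1.11e-06) and CCDC80 (2.25 ± 0.23, adjusted p = 2.03e-07) rose in ES2 and were not called in A2780, where they stood at 0.02 ± 0.18, 0.08 ± 0.12 and 0.28 ± 0.18. EMP2 rose in both lines and by more in ES2 (1.54 ± 0.18, adjusted p = 1.62e-06). MXD3, the MYC antagonist, rose in ES2 and fell in A2780 (2.69 ± 0.18, adjusted p = 6.74e-10). The other rises concern genes under 1 TPM in both A2780 groups, so the effect there was not tested on its own. These were ESM1 (2.86 ± 0.08, adjusted p = 2.77e-15), AK5 (1.96 ± 0.45, adjusted p = 0.00214), KISS1 (1.98 ± 0.37, adjusted p = 0.000321), TRBV10-3 (2.29 ± 0.39, adjusted p = 0.000109) and GPR4 (2.52 ± 0.20, adjusted p = 8.25e-09), of which ESM1 and TRBV10-3 were listed at 0 in A2780. With a pseudocount of 0.1 limma lost the calls of AK5 (0.852, adjusted p = 0.633) and KISS1 (2.19, adjusted p = 0.147).

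Among the largest falls, VRK1 (−1.40 ± 0.16, adjusted p = 1.08e-06), VAMP7 (−2.27 ± 0.16, adjusted p = 1.63e-09), MT2A (−0.84 ± 0.21, adjusted p = 0.00397) and CFAP251 (−2.23 ± 0.27, adjusted p = 2.32e-06) fell in both lines and further in ES2. MT2A started from very different levels, at 7442 TPM in ES2 and 90.6 TPM in A2780 with siCtrl. COL6A3 fell in ES2 and rose in A2780 (−3.61 ± 0.11, adjusted p = 8.15e-15). WFDC3 fell in ES2 and was not called in A2780 at under 1 TPM (−2.62 ± 0.37, adjusted p = 1.3e-05). KRT79 (−3.03 ± 0.15, adjusted p = 6.35e-12) and KLRC2 (−2.88 ± 0.20, adjusted p = 8.16e-10) were listed at 0 in both A2780 groups, and AKNAD1 (−2.66 ± 0.19, adjusted p = 1.63e-09) and MBP (−2.77 ± 0.26, adjusted p = 8.04e-08) were below 0.5 TPM there.

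Of genes called in opposite directions, 4 rose in ES2 and fell in A2780 beside MXD3. They were the metalloproteinase MMP3 (2.79 ± 0.15, adjusted p = 5.51e-11), the protease ADAMTS1 (2.45 ± 0.24, adjusted p = 1.7e-07), the NADPH oxidase NOX4 (2.38 ± 0.24, adjusted p = 2.2e-07) and LRRC20 (2.34 ± 0.11, adjusted p = 2.23e-12). The reverse was seen, beside COL6A3, for CCN2 (−3.34 ± 0.15, adjusted p = 2.1e-12), the hexosamine enzyme GFPT2 (−2.56 ± 0.21, adjusted p = 1.15e-08), TRNP1 (−2.42 ± 0.15, adjusted p = 3.19e-10) and the transcription factor CREB3L1 (−2.41 ± 0.16, adjusted p = 7.04e-10), which fell in ES2 and rose in A2780.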

How the results depend on the processing

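With other pseudocounts, filters, scalings, sets of libraries or prior, or a replicate block, the number of genes higher with siVRK1 was 2872 to 3560 (3351 as reported) and the number lower 3189 to 3587 (3505). Leaving out 1 library gave 3011 to 3058 and 3167 to 3253. Counts at 2-fold or more moved with the pseudocount, to 620 higher and 649 lower with 0.1 and to 125 higher and 227 lower with 5. Leaving out 1 library gave 344 to 371 and 440 to 475 at 2-fold. For the difference between lines, leaving out 1 library gave 2473 to 3108 more positive and 1625 to 1907 more negative. The share of more positive calls was 61% as reported, 44.7% with median-of-ratios scaling (2242 and 2771) and 51.7% with quantile normalization (2512 and 2347), with a median difference over all genes of 0.069, −0.022 and 0.013. The causes were not tested.

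Of 177 named genes called in ES2, 171 kept direction and call under each of the 18 alternatives, and 6 lost the call under at least 1 (FAU, MECOM, MT-ND3, RPL15, RPS16 and VRK3). Genes without a call that changed sign were KRT7 (0.0247 with quantile normalization), MCM7 (−0.0176 to 0.00394 with 1 library left out and 0.0456 with quantile normalization), PAX8 (−0.526 to 0.0329 with 1 library left out) and WT1 (−0.362 to 0.263 with 1 library left out).

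The replicate block gave 3309 higher and 3477 lower with the pair of unnamed siVRK1 libraries taken in one order, and 3300 and 3475 in the other. Deviations of siCtrl and siVRK1 libraries correlated at −0.07 to 0.05, and at 0.03 for library 3 of each group, the only known shared number. Such values cannot show whether libraries were prepared in parallel. TPM carry no depth, so counting error cannot be given, and with 3 libraries a group small changes of genes near 1 TPM could not be resolved.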

Other observations

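Genes of cell death were lower more often than genes at large against siCtrl. Of 31 tested members of the BCL2 family and death receptor list 14 were lower (45.2%) and 5 higher (16.1%), and against DMSO 7 were lower and 13 higher. FADD, the adaptor of death receptors, fell from 306 to 158 TPM (−0.95 ± 0.04) and TRADD from 12.6 to 3.21 TPM (−1.71 ± 0.13), with DMSO at 232 and 9.54 TPM. BCL2A1, an antiapoptotic member, rose from 39.8 to 86.9 TPM (1.11 ± 0.08), with DMSO at 67.5 TPM. The list mixes genes that promote death with genes that restrain it, and both kinds went both ways. The antiapoptotic BCL2L1, MCL1, CFLAR and BIRC3 were also called lower, and the proapoptotic BAD was called higher. Aminoacyl-tRNA synthetases, which load tRNAs, were lower in 11 of 22 (50%) and higher in 3 (13.6%) against siCtrl, and lower in 1 and higher in 14 against DMSO. The 3 higher ones became 1 without siCtrl library 2 or siVRK1 library 3. CARS1 fell from 40.4 to 19.2 TPM (−1.04 ± 0.05). In the ATF4 and amino acid list 13 of 31 were higher (41.9%) and 9 lower (29%, or 5 genes without siVRK1 library a), with 16 and 3 against DMSO, among them PHGDH, the first enzyme of serine synthesis, which rose from 87.2 to 175 TPM (1.0 ± 0.05, DMSO 220 TPM).

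In the Notch list 7 of 22 were higher (4 without siVRK1 library b) and 5 lower, with 11 and 4 against DMSO. The ligand JAG1 rose from 7.67 to 12.5 TPM (0.64 ± 0.09, DMSO 5.78 TPM), as did RBPJ, the DNA-binding partner of Notch, from 9.64 to 19.5 TPM (0.96 ± 0.10), while the target HES1 was at 11.8, 13.4 and 14.7 TPM and 4.51, 5.98 and 4.05 TPM (−1.30 ± 0.37, adjusted p = 0.0106) and far higher with DMSO, at 37.3 to 45.2 TPM. In the angiogenic and endothelial-type list 12 of 29 were higher (41.4%) and 8 lower (27.6%), with 11 and 7 against DMSO. Its receptor TIE1 rose from 101 to 152 TPM (0.59 ± 0.05) and the peptide APLN fell from 23.5 to 10.4 TPM (−1.10 ± 0.07). Of 13 mRNAs of the mitochondrial genome 2 were higher and 3 lower, such as MT-ND3 (from 11516 to 15852 TPM, 0.46 ± 0.05) and MT-CO1 (from 4613 to 3272 TPM, −0.49 ± 0.12). Without siVRK1 library b 1 was higher, and with quantile normalization, which equates the top value of every library, MT-ND3 had no call (limma adjusted p = 1).

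A few genes outside the rule for named genes, chosen after their values were seen, were below both controls in every siVRK1 library. SAE1, a subunit of the SUMO-activating enzyme, was at 145, 142 and 151 TPM with siCtrl, 29.6, 27.2 and 29.7 TPM with siVRK1 and 121 to 128 TPM with DMSO (−2.30 ± 0.05, adjusted p = 8.73e-12). CDC123, a chaperone of translation factor eIF2 assembly, was at 394, 385 and 386 TPM, 88.8, 90.4 and 84.9 TPM and 258 to 281 TPM (−2.13 ± 0.04, adjusted p = 6.86e-12). MZT2B, a protein of gamma-tubulin complexes, was at 297, 294 and 311 TPM, 68.8, 69.2 and 70.5 TPM and 395 to 435 TPM (−2.10 ± 0.05, adjusted p = 1.15e-11). All 3 also fell with siVRK1 in A2780 (−1.52 ± 0.05, −1.17 ± 0.05 and −1.19 ± 0.04).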
